A study of Rattus norvegicus with 12 samples.

Results

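Fibroblast growth factors (Fgfs) and their receptors were followed here as a set of 10 rat genes, chosen by name as 4 receptor genes (Fgfr1, Fgfr2, Fgfr3 and Fgfr4) and 6 ligand genes (Fgf1, Fgf2, Fgf7, Fgf9, Fgf10 and Fgf18). A row with the matching Entrez identifier was found for 9 of the 10 among the 16511 genes of the count table, and Fgf18 was not analysed here. The data were read counts per gene in 12 whole mammary glands of Sprague-Dawley rats at PND21, of which 6 came from pups whose dams ate a high fat butter (HFB) diet in gestation and 6 from pups whose dams ate the control AIN diet (CTL). Each gland came from a separate litter and was snap frozen, and the pups themselves were kept on the AIN diet after birth. The groups and tissue are those of the labels, which name no other agent. The study's texts differ on when the exposure began and ended, and part of them describes RNA from microdissected epithelium of glands with the high fat diet, with and without bisphenol A. Libraries are named by diet and library number, 1 to 6 for HFB and 7 to 11 and 14 for CTL.

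Fgfs are secreted or cell-bound proteins that bind receptor tyrosine kinases at the cell surface, with heparan sulfate as a partner in the complex. The bound receptors signal through adaptor proteins to the Ras and MAP kinase, PI3 kinase and phospholipase C gamma routes, which induce inhibitors of the same pathway such as the Sprouty proteins. In the mammary gland, Fgf10 and Fgf7 are made by cells of the stroma and bind the epithelial splice form of Fgfr2 on the ducts, and signalling through Fgfr2 is needed for the first mammary buds and for later growth of the ductal tips. A gene count cannot tell the epithelial from the mesenchymal splice form of a receptor.

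The sequences just upstream of the start sites are shown for Fgfr2, Fgf7 and Fgf10. They were chosen since Fgf7 and Fgf10 moved together over the 12 glands (Pearson r of log2 CPM 0.94) and their receptor Fgfr2 did not. Without HFB 6 and CTL 14, where both ligands had few reads, the r of Fgf7 and Fgf10 was 0.613. Each sequence is the 250 bases before the start site given by RefSeq on the rat GRCr8 assembly, which is not the build named in the submitters' processing notes. Such an entry was matched for 8 of the 9 genes. The Fgfr2 sequence lies at chr1:194280915-194281164 on the minus strand, that of Fgf7 at chr3:133735377-133735626 on the plus strand and that of Fgf10 at chr2:52533689-52533938 on the plus strand. Capitals mark matches on either strand to 3 short motifs, a GC box, a TATA box and a CCAAT box. The GC box was searched as GGGCGG and was held by 30.5% of 33469 rat promoter sequences of the same length. The TATA box was searched as TATAAA and was held by 12.9% of them. The letters CCAAT were held by 34.0%. No matches overlap in the sequences shown.
Fgfr2: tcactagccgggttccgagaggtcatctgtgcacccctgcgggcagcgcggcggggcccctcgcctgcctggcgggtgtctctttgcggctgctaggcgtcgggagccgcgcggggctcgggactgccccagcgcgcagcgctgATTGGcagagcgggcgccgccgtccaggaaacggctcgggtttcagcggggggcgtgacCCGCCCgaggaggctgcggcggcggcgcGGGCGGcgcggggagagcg
Fgf7: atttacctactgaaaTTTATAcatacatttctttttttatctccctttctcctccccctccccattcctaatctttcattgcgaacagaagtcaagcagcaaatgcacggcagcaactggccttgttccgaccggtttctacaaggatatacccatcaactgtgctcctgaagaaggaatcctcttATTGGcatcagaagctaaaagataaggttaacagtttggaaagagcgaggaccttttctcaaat
Fgf10: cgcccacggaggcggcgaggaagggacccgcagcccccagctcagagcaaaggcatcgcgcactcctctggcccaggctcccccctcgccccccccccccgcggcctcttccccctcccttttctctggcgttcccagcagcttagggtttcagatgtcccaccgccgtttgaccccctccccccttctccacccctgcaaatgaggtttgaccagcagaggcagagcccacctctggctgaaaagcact
The Fgfr2 sequence was 76.8% G and C with 37 CpG dinucleotides, and it held 2 GC boxes and 1 CCAAT box. The Fgf7 sequence was 41.6% G and C with 5 CpG dinucleotides, the median over all promoters. It held 1 CCAAT box and 1 match to the TATA letters, which lay on the opposite strand and far from the start site. The Fgf10 sequence was 67.2% G and C with 13 CpG dinucleotides and held none of the 3 motifs. A match describes the letters only, and binding at these sequences was not measured.

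Total counts per library ranged from 2320267 to 2944680. Levels are given as CPM, counts scaled to a common library total after TMM normalization, a factor that corrects for differences in composition between libraries. A gene was taken as detectable in a library from 3 counts on, which equal between 0.945 and 1.30 CPM, and this limit covers counting error only. A filter on low counts kept 9382 genes for testing, among them 6 of the 9 genes of the set (Fgfr1, Fgfr2, Fgfr3, Fgf1, Fgf7 and Fgf10). The other 3, Fgfr4, Fgf2 and Fgf9, did not pass the filter and are given mainly by their counts.

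HFB 6 and CTL 14 stood apart from the other 10 libraries in marker genes outside the Fgf set. The score of 6 adipocyte genes, their mean log2 CPM, was 9.66 in HFB 6 and 9.61 in CTL 14 and at least 11.01 elsewhere. Adipocyte genes summed to 17520 CPM in HFB 6 and 14160 CPM in CTL 14, against 26860 to 34380 CPM in the other libraries. Fabp4, which encodes a fatty acid binding protein of fat cells, had the highest CPM of these genes in every library. The fibroblast score was lowest in the same libraries, at 9.58 and 9.41. The lymphoid score was highest there, at 6.66 and 6.94 against at most 4.99 in the other libraries, and the summed lymphoid genes reached 862 and 1071 CPM. The mammary epithelium score was also highest in these libraries, at 5.99 in HFB 6 and 6.12 in CTL 14, with HFB 5 next at 5.98. Of 8 lymphoid genes listed 7 had a row, and the highest CPM was that of Cd79b in HFB 6 and that of Ptprc in CTL 14. The diet differences of the 6 Fgf genes tested, and the slopes called for the adipocyte, fibroblast and lymphoid scores, are therefore followed without these 2 libraries as well. In a whole gland, fewer cells of a type and less RNA per cell cannot be told apart.

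The markers of mammary epithelium were present in all 12 glands. Of 10 listed genes 9 had a row and 8 were counted in every library, while Cldn3 was at 0 in all. Their sum ranged from 120 CPM in HFB 1 to 694 CPM in HFB 6, with the highest CPM in each library for the keratin gene Krt8.

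Fgfr1 (Entrez 79114), a receptor found in stroma as well as epithelium, had the largest ratio of highest to lowest library among the receptor genes that passed the filter. The ratio was 13.3 over the 12 libraries, against 2.16 for Fgfr2 and 9.1 for Fgfr3, whose lowest library had 2 reads. The Fgfr1 level ran from 10.7 CPM in HFB 6 through a median of 73.0 to 142.6 CPM in HFB 4 within the HFB group. In the CTL group it ran from 34.4 CPM in CTL 14 through a median of 109.4 to 122.5 CPM in CTL 9. The lowest library of each diet was thus one of the 2 that stood apart, and the groups overlapped. In counts, Fgfr1 had 27 reads in HFB 6 and 99 in CTL 14, against 152 to 400 in the other libraries.

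Fgfr2 (Entrez 25022), the receptor of Fgf7 and Fgf10 on the ducts, varied far less. It ran from 20.6 CPM in HFB 3 through a median of 30.5 to 43.2 CPM in HFB 5. In the CTL group it ran from 25.5 CPM in CTL 10 through a median of 35.3 to 44.5 CPM in CTL 8. HFB 6, at 37.3 CPM, and CTL 14, at 42.1 CPM, were in the upper part of this range, the opposite of their place for Fgfr1.

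Fgfr3 (Entrez 84489), a receptor best known from growing cartilage, was counted with few reads. It had 2 to 16 reads per library in the HFB group (median 2.64 CPM) and 7 to 19 in the CTL group (median 4.96 CPM). HFB 5 and HFB 6 had 2 reads each, under the detectable level, and 5 of 6 HFB libraries lay below the CTL median.

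Fgfr4 (Entrez 25114), a receptor best known from liver and muscle, was at or near the limit of detection in most glands. It had 10 reads in HFB 6 and 14 in CTL 14, or 3.97 and 4.87 CPM, and 1 to 4 reads in the other 10 libraries. The libraries with the most Fgfr4 reads were thus those with the fewest Fgfr1 reads. They were also those with the highest lymphoid scores, and the part of lymphoid tissue in the Fgfr4 reads was not tested.

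**Figure D1:**
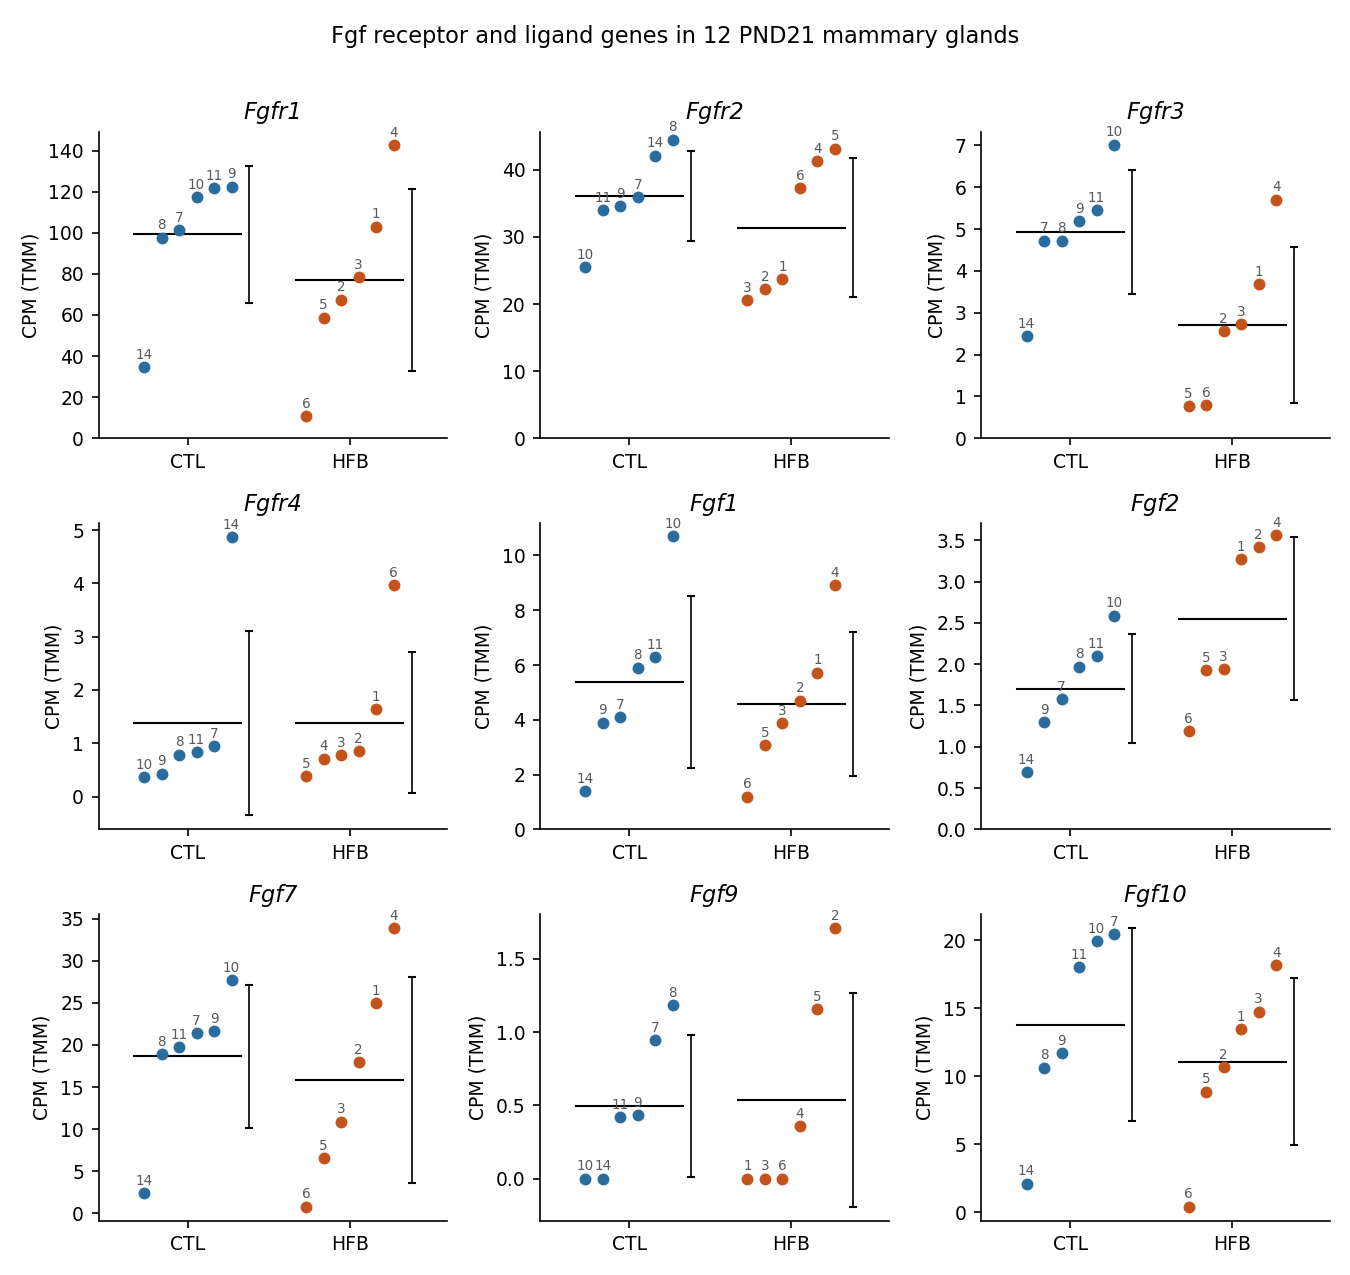
Level of each of the 9 Fgf receptor and ligand genes in the 12 glands, in CPM after TMM scaling, with 1 point per library labelled by library number, a horizontal line at the mean of each diet and a bar of 1 SD to either side of it (n = 6). HFB 6 and CTL 14 are the lowest points of their diets for Fgfr1, Fgf1, Fgf2, Fgf7 and Fgf10 and the highest for Fgfr4, while for Fgfr2 they lie at 37.3 and 42.1 CPM, within the range of the others.

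Of the reads that fell on the 4 receptor genes, Fgfr1 took a median of 73.7% over the 12 libraries. These shares also depend on transcript length, which was not used here, so they are compared between libraries and not between receptors. The share of Fgfr1 was 20.3% in HFB 6 (95% exact binomial interval 13.8 to 28.1%, which like those below covers counting error only), from 133 reads. It was 41.1% in CTL 14 (34.8 to 47.6%), from 241 reads, and 56.9% in HFB 5 (50.75 to 62.95%), from 267 reads. In the other 9 libraries it lay between 66.1% and 78.1%.

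The share of Fgfr2 was 70.7% in HFB 6, 50.2% in CTL 14 and 41.9% in HFB 5, with a lowest value of 16.95% in CTL 10. Since Fgfr1 and Fgfr2 took most of the receptor reads, a lower share of Fgfr1 brings a higher share of Fgfr2. The Fgfr2 level itself was 37.3 CPM in HFB 6, 42.1 CPM in CTL 14 and 43.2 CPM in HFB 5, within its range elsewhere. Expressed as a ratio, there were 0.287 Fgfr1 reads per Fgfr2 read in HFB 6, 0.818 in CTL 14 and 1.36 in HFB 5, and between 2.19 and 4.61 in the other libraries. The median share of Fgfr1 was 73.7% in the HFB group and 73.0% in the CTL group, and no test of this share between the diets was run.

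**Figure D2:**
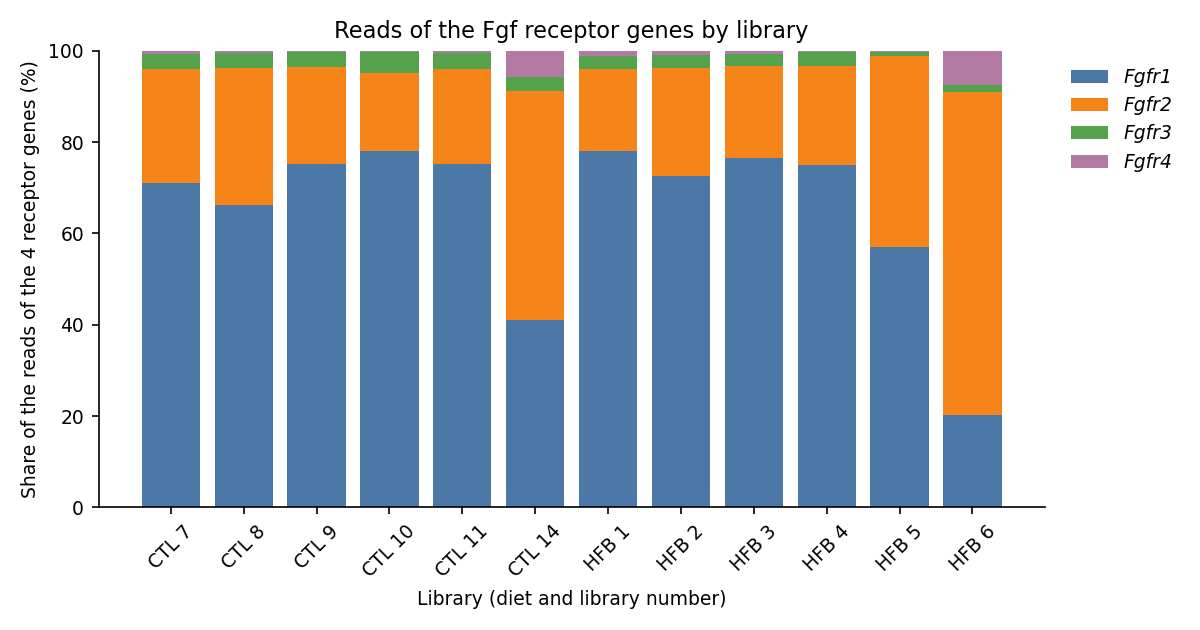
Share of the reads on the 4 Fgf receptor genes that fell on each receptor, in percent, as 1 stacked bar for each of the 12 libraries. Fgfr1 takes 20.3% of the bar in HFB 6, 41.1% in CTL 14 and 56.9% in HFB 5, and 66.1% to 78.1% in the other bars.

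Among the ligands, Fgf7 (Entrez 29348), a stromal growth factor for epithelial cells, followed the pattern of Fgfr1. It had 2 reads in HFB 6 and 7 in CTL 14, against 17 in HFB 5 and 28 to 95 in the remaining libraries. Its level had a median of 14.4 CPM and a highest value of 33.9 CPM in HFB 4 among the HFB libraries. Among the CTL libraries the median was 20.6 CPM and the highest value 27.7 CPM in CTL 10, so that the groups overlapped.

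Fgf10 (Entrez 25443), the stromal ligand needed for mammary bud formation, did the same. It had 1 read in HFB 6 and 6 in CTL 14, against 23 to 65 in the other libraries. Its median was 12.1 CPM in the HFB group, with 18.2 CPM in HFB 4 as the highest value, and 14.9 CPM in the CTL group, with 20.5 CPM in CTL 7 as the highest. Fgf7 and Fgf10 were low in the same glands, and the number of Fgf7 reads per Fgf10 read lay between 0.737 in HFB 3 and 2.0 in HFB 6, the latter from 2 reads and 1 read.

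Fgf1 (Entrez 25317), a ligand that can bind every Fgf receptor, had 3 reads in HFB 6 and 4 in CTL 14 and 8 to 29 in the other libraries. Its median was 4.29 CPM in the HFB group and 5.001 CPM in the CTL group. Fgf2 (Entrez 54250), a ligand held in the extracellular matrix by heparan sulfate, had 3 to 10 reads in the HFB libraries and 2 to 7 in the CTL libraries. Fgf9 (Entrez 25444) had 16 reads in all and was at 0 in 5 libraries, which allows a level of up to between 1.04 and 1.23 CPM in them. Fgf2 had a higher mean with HFB, at 2.55 ± 0.99 CPM (SD, n = 6) against 1.70 ± 0.66 CPM (SD, n = 6) with CTL. In a fit without the filter its log2 fold change between the diets, HFB minus CTL, was 0.58 (95% interval -0.29 to 1.45, unadjusted p = 0.175), and that of Fgf9 was 0.08 (-1.99 to 2.16).

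Of 16 further ligand genes fixed as a list, all had a row, 5 were at 0 in every library and none passed the filter. The 3 with the most reads were Fgf16, with 45 reads in all and at most 11 in a library, the endocrine ligand Fgf21, with 39 reads, and Fgf13, which acts inside the cell, with 30 reads.

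The diet comparison asked whether the gestational HFB diet left a difference in these genes at PND21. None of the 6 genes tested had an adjusted p under 0.05, in the main fit or in any alternative that tested it. Each had a lower mean with HFB, but for Fgf1 and Fgf7 the sign turned in at least 1 alternative. For Fgf10 it turned only without HFB 5 and HFB 6, its lowest HFB libraries, in a fit added after the values had been seen. Of the cell type markers, 8 of 8 mammary epithelium genes (median log2 fold change -0.197), 8 of 8 fibroblast genes (-0.109), 3 of 4 endothelial genes (-0.135) and 3 of 6 adipocyte genes (-0.00266) were lower with HFB, while 6 of 6 skeletal muscle genes (0.398) and 3 of 3 lymphoid genes (0.305) were higher, none of them with an unadjusted p under 0.05. Of all genes tested 4688 were lower and 4694 higher. With edgeR's quasi-likelihood test and p-values adjusted over 9382 genes (Benjamini-Hochberg), 0 of 6 had an adjusted p under 0.05, against 0 of all genes tested (0.0%), and each adjusted p was 0.999. At an unadjusted p under 0.05 the count was 0 of 6 against 220 genes (2.34%) with edgeR, 0 of 6 against 271 with DESeq2 and 1 of 6, Fgfr3, against 613 with limma. The study's rule, given for another comparison, was a p under 0.05 with a fold change over 2, and it was taken here with the unadjusted p. Under this rule the count was 0 of 6 against 11 genes (0.117%) in the main fit, and Fgfr3 met the rule in 2 of the alternatives. The diet groups overlapped for all 6, and they were separate for 10 genes (0.107%) of those tested. The median log2 fold change of the 6 was -0.27, against 0.00018 over all genes tested. Without HFB 6 and CTL 14 the log2 fold changes were -0.31 for Fgfr1, -0.20 for Fgfr2, -0.79 for Fgfr3, -0.22 for Fgf1, -0.21 for Fgf7 and -0.29 for Fgf10.

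Fgfr3 had the lowest estimate. It was at 2.71 ± 1.86 CPM (SD, n = 6) with HFB and 4.93 ± 1.48 CPM (SD, n = 6) with CTL. The log2 fold change was -0.84 (standard error 0.44, 95% interval -1.78 to 0.10), with an unadjusted p of 0.0761 in edgeR. Over the alternatives that tested it the estimate lay between -1.21, without HFB 4, and -0.41, without HFB 5 and HFB 6. The unadjusted p was under 0.05 in 5 of them. Those that met the study's rule were the fit without HFB 4 (unadjusted p = 0.0159) and the fit with the mammary epithelium score as a covariate (-1.04, unadjusted p = 0.0378). Their adjusted p were 0.966 and 0.603.

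Fgfr1 was at 76.8 ± 44.3 CPM (SD, n = 6) with HFB and 99.2 ± 33.4 CPM (SD, n = 6) with CTL, and 5 of 6 HFB libraries were below the CTL median. Its log2 fold change of -0.37 had a 95% interval of -1.33 to 0.59, so neither a fall to 0.399 times the CTL level nor a rise to 1.51 times could be told from no difference. When each library was left out in turn, the estimate lay between -0.64 (without HFB 4) and -0.14 (without HFB 6). Without HFB 5 and HFB 6, a fit added after the values had been seen, it was -0.02.

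Fgfr2 was at 31.4 ± 10.3 CPM (SD, n = 6) with HFB and 36.1 ± 6.73 CPM (SD, n = 6) with CTL. Its log2 fold change was -0.20 (95% interval -0.68 to 0.28), the narrowest interval of the 6. This estimate lay between -0.31 (without HFB 5) and -0.10 (without HFB 3) when each library was left out. The HFB libraries divided evenly for Fgfr2, with 3 above and 3 below the CTL median.

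The ligands gave wide intervals. Fgf7 was at 15.8 ± 12.2 CPM (SD, n = 6) with HFB and 18.6 ± 8.52 CPM (SD, n = 6) with CTL, a log2 fold change of -0.23 (95% interval -1.57 to 1.11). This estimate was 0.02 without HFB 6, 0.24 without HFB 5 and HFB 6, and -0.21 without HFB 6 and CTL 14. Fgf10 was at 11.1 ± 6.15 CPM (SD, n = 6) with HFB and 13.8 ± 7.10 CPM (SD, n = 6) with CTL. Its log2 fold change was -0.32 (95% interval -1.56 to 0.92), and it lay between -0.54 (without CTL 14) and -0.064 (without HFB 6) with each library left out. It was -0.29 without HFB 6 and CTL 14, and 0.05 in the later added fit without HFB 5 and HFB 6. Fgf1 had a log2 fold change of -0.22 (95% interval -1.24 to 0.80), which was 0.11 without CTL 10 and -0.22 without HFB 6 and CTL 14.

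The spread between glands of a diet was followed further with scores of tissue marker genes. Each score is the mean log2 CPM of a list, and the slope of a gene is its change in log2 CPM per unit of the score, fitted by edgeR over all genes with diet as a covariate. Fgfr1, Fgf1, Fgf7, Fgf10 and Fgfr3 rose with the adipocyte score, and Fgfr2 was not called. The slope was 1.36 for Fgfr1 (standard error 0.24, adjusted p = 0.000432), 2.19 for Fgf7 (standard error 0.40, adjusted p = 0.000558) and 2.04 for Fgf10 (standard error 0.36, adjusted p = 0.000423). It was 1.33 for Fgf1 (adjusted p = 0.00606) and 0.89 for Fgfr3 (adjusted p = 0.0391). For Fgfr2 it was -0.21 (standard error 0.17, adjusted p = 0.316).

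These 5 of 6 genes stand against a high background, since 53.9% of all genes tested had an adjusted p under 0.05 for this slope and 26.8% rose with the score. The calls also rested on HFB 6 and CTL 14 together, and without both 0 of 9386 genes were called. The slope of Fgfr1 was then 0.25 (95% interval -1.93 to 2.43), that of Fgf7 1.014 and that of Fgf10 -0.49. The slope of Fgf1 stayed about as large, at 1.14 (-2.67 to 4.94), and that of Fgfr3 was larger, at 1.32 (-2.73 to 5.38), with wide intervals that included 0. The call of Fgf1 was also lost without either of them alone (adjusted p = 0.0544 without HFB 6 and 0.0605 without CTL 14), while its slope lay between 1.22 and 1.425 whichever library was left out. That of Fgfr3 was lost in 8 of 16 alternatives.

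With the fibroblast score, Fgfr1, Fgf7 and Fgf10 rose, with slopes of 2.12 (adjusted p = 0.0114), 3.24 (adjusted p = 0.0207) and 3.17 (adjusted p = 0.00999). These are 3 of 6 genes, against 33.7% of all genes called and 14.6% called upward. The slope of Fgf1 was 1.94 (adjusted p = 0.0598), and it was called in 3 alternatives (without HFB 5, without CTL 9 and without the diet term), as was that of Fgfr3 (1.21, adjusted p = 0.17) in 1, without HFB 5. The calls depended on HFB 6 and CTL 14 here as well. Without CTL 14 alone the adjusted p was 0.0771 for Fgfr1, 0.261 for Fgf7 and 0.162 for Fgf10, and without HFB 6 it was 0.102 for Fgf7. With any 1 library left out the slopes stayed between 1.52 and 3.50 for Fgfr1, 2.38 and 3.80 for Fgf7 and 2.33 and 3.65 for Fgf10. Without HFB 6 and CTL 14 together, the slopes were 0.03 for Fgfr1, -1.80 for Fgf7 and -1.001 for Fgf10, and 0 genes were called.

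The fibroblast markers Pdgfra and Dcn, 2 of the 8 listed, were set beside the stromal ligands in these glands. Pdgfra, a receptor that marks fibroblasts, was at 86.5 CPM in HFB 6 and 82.8 CPM in CTL 14, against 101 to 208 CPM in the other libraries. On the log2 scale relative to the median of the 12 libraries, HFB 6 was at -0.8 for Pdgfra, -1.2 for the matrix gene Dcn, -3.5 for Fgf10 and -3.7 for Fgf7, the ligands from 1 and 2 reads. CTL 14 was at -0.9 for Pdgfra, -1.4 for Dcn, -2.2 for Fgf10 and -2.6 for Fgf7. Other listed markers lay nearer their medians in HFB 6, with Lum at 356 CPM against 420.6, Fbln1 at 12.7 against 14.18 and Col1a1 at 10580 against 13130. HFB 2 was lower than HFB 6 for Lum and Fbln1. In CTL 14 Lum was at 233.5, Fbln1 at 12.88 and Col1a1 at 9131 CPM. Dpt (956.8 against 1639), Col1a2 (4734 against 7357) and Col3a1 (7530 against 16680) lay further below their medians in HFB 6. A test of these differences was not run. All 8 fibroblast genes were counted in all 12 libraries, with the highest CPM for Col3a1 or Col1a1, and they summed to between 23520 and 54500 CPM.

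Fgfr2 had the only positive slope of the 6 genes on the mammary epithelium score over the 12 libraries. Its slope was 0.31 (standard error 0.11, 95% interval 0.08 to 0.55), with an unadjusted p of 0.0124 and an adjusted p of 0.113 in edgeR. None of the 6 genes was called for this score, against 1.29% of all genes tested (1.24% upward and 0.0533% downward). Without HFB 1 and HFB 3, the farthest from the median score, the Fgfr2 slope was 0.27 (95% interval -0.09 to 0.63), and it lay between 0.28 and 0.36 when each library was left out in turn. The other 5 slopes were negative, from -0.52 for Fgf7 to -0.26 for Fgf1, and each had an interval that included 0. Without HFB 4 the slope of Fgfr3 was -0.68 and was called (adjusted p = 0.0428), among 1769 genes called in that fit, and those of Fgfr1 (-0.60) and Fgf7 (-0.99) had unadjusted p of 0.0199 and 0.0105. Those of Fgfr3, Fgf1 and Fgf10 turned positive without HFB 5 and HFB 6, at 0.078, 0.12 and 0.079.

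**Figure D3:**
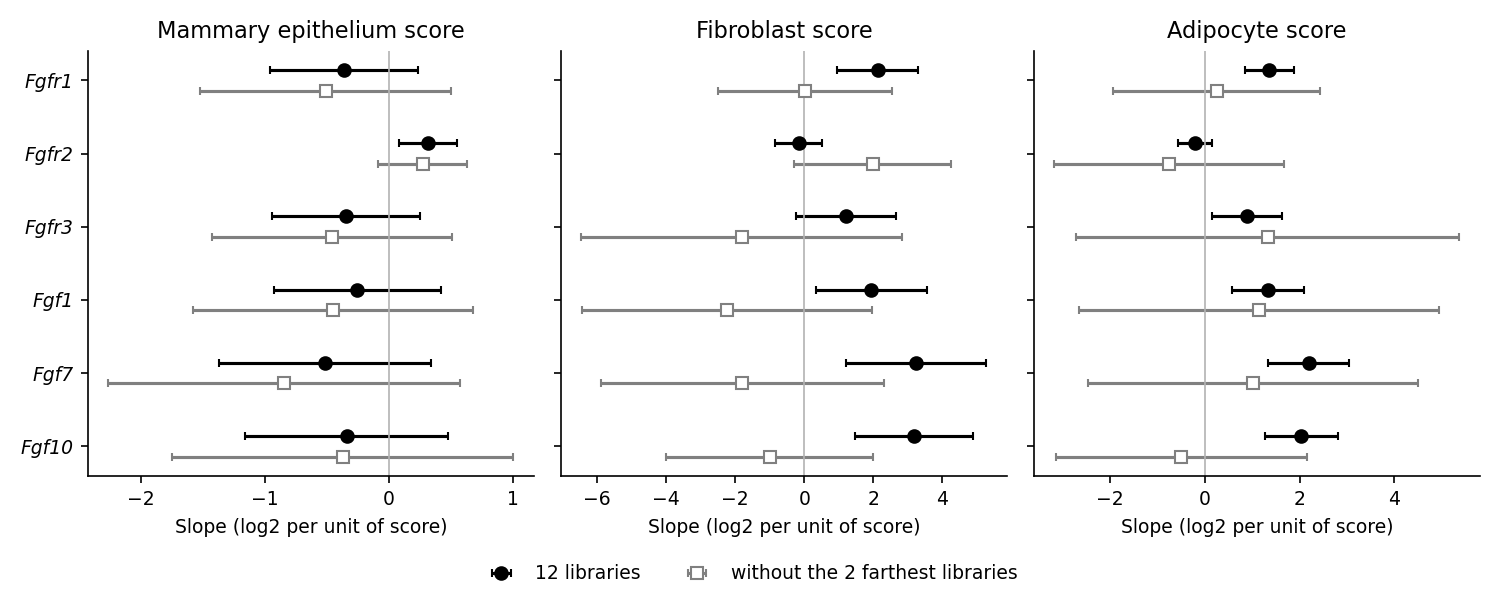
Slope of 6 Fgf genes on the mammary epithelium, fibroblast and adipocyte scores, in log2 CPM per unit of the score with 95% intervals, for all 12 libraries (filled circles) and without the 2 libraries farthest from the median score (open squares). For Fgfr1, Fgf7 and Fgf10 the filled circles lie above 0 for the fibroblast and adipocyte scores, and every open interval in the 3 panels includes 0.

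For the lymphoid score, Fgfr1 (slope -0.28, adjusted p = 0.0439) and Fgf10 (slope -0.39, adjusted p = 0.0372) fell, 2 of 6 genes against 24.5% of all genes called and 8.6% called downward. Without HFB 6 and CTL 14 these slopes were -0.04 (adjusted p = 0.938) and -0.06 (adjusted p = 0.915), and the share of all genes called was 0.703%. With 1 library left out the call of Fgfr1 was lost in 8 of 12 fits (without HFB 3, HFB 4, HFB 6, CTL 7, CTL 8, CTL 10, CTL 11 or CTL 14) and that of Fgf10 in 7 (without HFB 3, HFB 4, HFB 6, CTL 9, CTL 10, CTL 11 or CTL 14). Fgf1 was called without HFB 1 or HFB 5, Fgf7 without HFB 1 and Fgfr3 without HFB 5. The 6 skeletal muscle genes with a row summed to between 154 and 5227 CPM. None of the 6 Fgf genes was called for the skeletal muscle score, against 0.821% of all genes (0.492% without the 2 farthest libraries), or for the endothelium score, for which 0.0% were called. Since the adipocyte, fibroblast and lymphoid scores all set HFB 6 and CTL 14 apart, their parts in the Fgf values cannot be told apart with these libraries.

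HFB 5 shared part of the pattern. Its mammary epithelium score of 5.98 was next to those of CTL 14 and HFB 6, the highest of the 12. Its adipocyte score of 11.04, fibroblast score of 10.40 and lymphoid score of 1.55 lay within the range of the other 9 libraries, while its endothelium score of 4.66 was the lowest of the 12. Fgfr1, at 58.6 CPM, Fgfr3, at 0.771 CPM, Fgf1, at 3.085 CPM, Fgf7, at 6.56 CPM, and Fgf10, at 8.87 CPM, were lower there than in any of those 9.

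Some genes of the signal relay and of endothelium were looked up after their values had been seen. Pik3r1, a regulatory subunit of PI3 kinase, had 4 reads in HFB 6, 17 in HFB 5 and 30 in CTL 14, with a median of 114 over the 12 libraries. Akt1, a kinase downstream of PI3 kinase, had 48, 261 and 176 reads in these libraries, with a median of 361. The relay genes named further below did not all go this way. Map2k2 was at 251.6 CPM in HFB 6 and 164.6 CPM in CTL 14, against a median of 114.7 CPM. Mapk3 was at 175.0 and 193.8 CPM (median 174.3 CPM) and Hras at 115.5 and 100.2 CPM (median 116.8 CPM). Shc1 was lower, at 131.4 and 112.0 CPM against a median of 189.2 CPM.

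The endothelial cadherin gene Cdh5 had 7 reads in HFB 6 and 14 in HFB 5 but 78 in CTL 14, with a median of 76. Other endothelial markers were not low in HFB 6, where Tek had 115 reads, Emcn 157 and Pecam1 639. Of the 6 endothelial genes listed, 5 had a row and Cldn5 was at 0 in all libraries. Plcg1, the phospholipase bound by Fgf receptors, was higher in HFB 6 and CTL 14, at 329 and 290 CPM, than in the other libraries, at 97.5 to 148 CPM. In CTL 14 Cdh5 (0.1), Tek (0.1) and Emcn (0.9) were all above the median of the 12 libraries on the log2 scale. Pecam1 was at 253.6 CPM in HFB 6 and 237.3 CPM in CTL 14, against 27.3 to 60.4 CPM in the other libraries. These are also the libraries with the highest lymphoid scores, and a part of lymphoid tissue in the Pecam1 reads was not tested. Values of RNA quality were not used here.

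**Figure D4:**
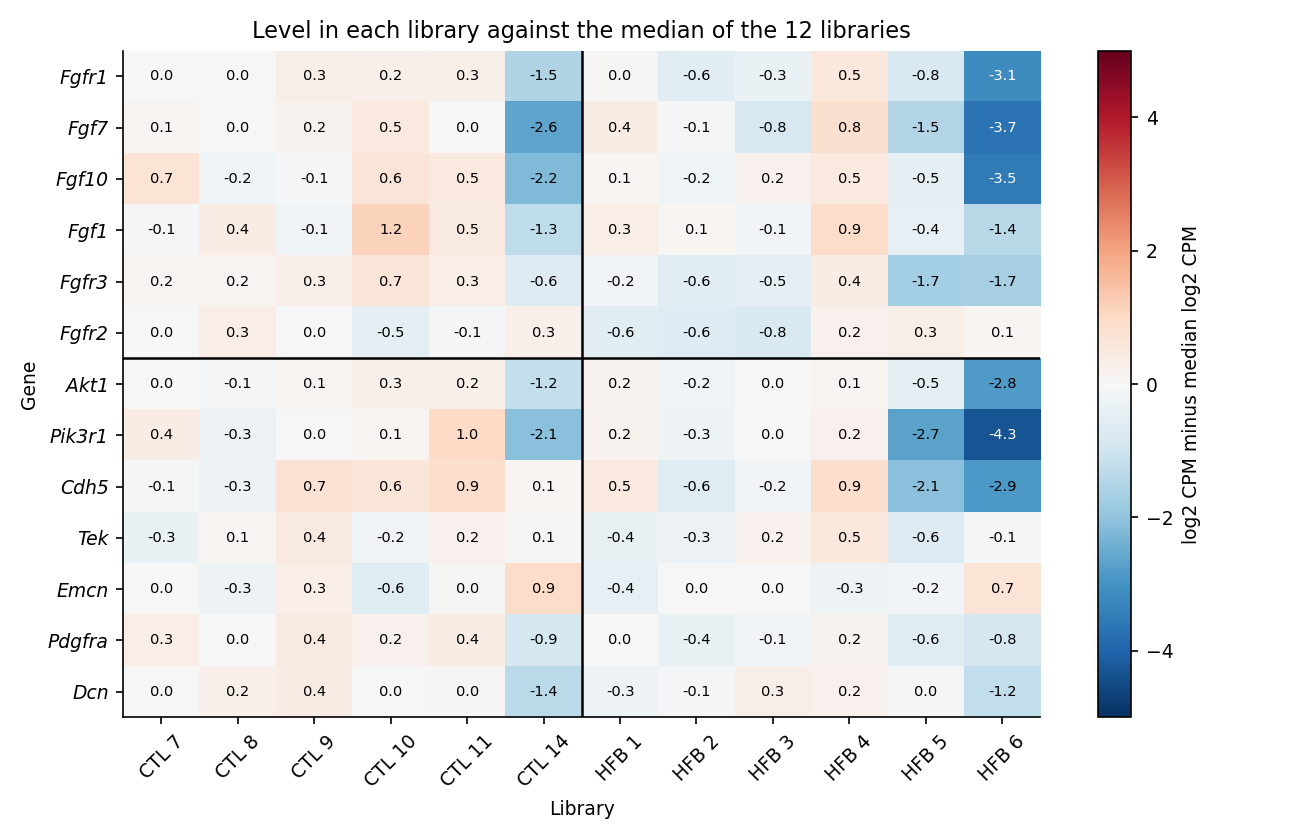
Level of 6 Fgf genes (above the line) and of 7 signal relay, endothelial and fibroblast genes (below it) in each library, as log2 CPM minus the median of the 12 libraries, with colour and number giving the same value. HFB 6 is at -3.1 for Fgfr1, -3.7 for Fgf7 and -3.5 for Fgf10, with Akt1 at -2.8 and Pik3r1 at -4.3, while Fgfr2 (0.1), Tek (-0.1) and Emcn (0.7) are near or above the median there. Akt1 and Pik3r1 were chosen after their values had been seen, and other relay genes are not shown.

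The genes most like each member were taken as those with the highest Pearson r of log2 CPM over the 12 libraries, as a description without a test, and the points share the 2 libraries that stood apart. For Fgfr1 they were Pgap2 (r = 0.989), Fbn1, which encodes the matrix protein fibrillin (0.983), and Hbp1 (0.983), and without HFB 6 and CTL 14 these r were 0.944, 0.920 and 0.915. For Fgf7 they were Nfe2l1 (0.984), the secreted factor Angptl2 (0.981) and the mitochondrial fusion gene Mfn2 (0.981), or 0.909, 0.909 and 0.890 without these libraries. For Fgf10 they were Smo, the signal transducer of the Hedgehog pathway (0.989), Spryd4 (0.974) and Kpna6 (0.974), or 0.893, 0.875 and 0.683. These are extremes over all genes that passed the filter, and the lowest r were about as strong. The lowest were -0.981 (Vps53) for Fgfr1, -0.983 (Wdr74) for Fgf7, -0.978 (Hgs) for Fgf10 and -0.832 (Rcbtb2) for Fgfr2.

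Fgfr2 had other neighbours and lower correlations. Its nearest genes were F2rl1, a protease-activated receptor (r = 0.862), Ppp1r1b (0.821) and the transcription factor gene Sox8 (0.814), and without HFB 2 and HFB 3, the farthest from its median, r was 0.817, 0.678 and 0.731. Of these, Ppp1r1b rose with the mammary epithelium score (slope 1.35, adjusted p = 0.00186 in edgeR), and F2rl1 (0.56, adjusted p = 0.109) and Sox8 (0.68, adjusted p = 0.0545) were not called. Within the set, Fgfr1 and Fgf7 had an r of 0.959 (0.851 without HFB 6 and CTL 14), Fgfr1 and Fgf10 of 0.955 (0.673) and Fgf7 and Fgf10 of 0.94 (0.613). Fgfr3 had an r of 0.818 with Fgfr1 (0.909 without these libraries) and of 0.821 with Fgf7 (0.888), the highest of the set in the 10 that remain. Between Fgfr1 and Fgfr2 r was -0.183 (0.206).

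The rest of the pathway was followed in 5 lists of 83 genes, of which 76 had a row and 47 passed the filter. None of the 47 had an adjusted p under 0.05 for diet, or an unadjusted one, against the 2.34% of all genes given above. Of 3 genes for coreceptors and binding proteins that were tested, 1 was higher and 2 were lower with HFB, with a median log2 fold change of -0.021. Fgfrl1, a receptor without the kinase part, had the most reads of these and a log2 fold change of 0.10 (95% interval -0.70 to 0.91). Like Fgfr1 it was low in HFB 6 and CTL 14, at 39.7 and 56.0 CPM against 148 to 257 CPM elsewhere. Its slope on the adipocyte score was 1.25 (standard error 0.13). Flrt3, a membrane partner of the receptors, had a log2 fold change of -0.27 and Fgfbp3, a carrier of secreted Fgfs, of -0.02.

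Of 17 heparan sulfate genes tested, 4 were higher and 13 lower with HFB, with a median log2 fold change of -0.0836. Ext1, a subunit of the enzyme that builds the heparan sulfate chain, had the smallest p of the list. It was at 61.0 ± 8.04 CPM (SD, n = 6) with HFB and 74.8 ± 18.0 CPM (SD, n = 6) with CTL, and 6 of 6 HFB libraries were below the CTL median. Its log2 fold change was -0.29 (95% interval -0.66 to 0.07), which did not differ beyond the spread (unadjusted p = 0.109, edgeR). The proteoglycan gene Gpc4 had a log2 fold change of -0.22 and Sdc2 of -0.07, Sulf2, which removes sulfate groups from the chain, of -0.21, and Ext2, the partner of Ext1, of 0.13.

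Of 19 signal relay genes, 5 were higher and 14 lower with HFB, with a median log2 fold change of -0.113. The smallest p values belonged to Hras, a small GTPase, with a log2 fold change of 0.24 (95% interval -0.06 to 0.54), and to Map2k2, which encodes a kinase of the MAP kinases, with 0.35 (95% interval -0.14 to 0.85). For each of them 5 of 6 HFB libraries were above the CTL median. The 3 with the most reads were the adaptor gene Shc1, with a log2 fold change of -0.09, the MAP kinase gene Mapk3, with 0.10, and Plcg1, with -0.03.

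Feedback inhibitors and target genes, which are induced by Fgf signalling among other signals, had the lowest median of the pathway lists. Of 8 tested, 0 were higher and 8 lower with HFB, with a median log2 fold change of -0.278 against 0.000184 over all genes, and none passed the test. The 8 mammary epithelium and 8 fibroblast markers were lower with HFB as well, as given above. Spry4, a Sprouty inhibitor, was at 43.4 ± 7.49 CPM (SD, n = 6) with HFB and 57.9 ± 22.8 CPM (SD, n = 6) with CTL. Its log2 fold change was -0.42 (95% interval -0.92 to 0.09), and CTL 7, at 95.1 CPM, was its highest library. The transcription factor gene Etv1 had a log2 fold change of -0.36 (95% interval -0.93 to 0.20), Spry2 of -0.23 and Dusp6, a phosphatase of MAP kinases, of -0.11.

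**Figure D5:**
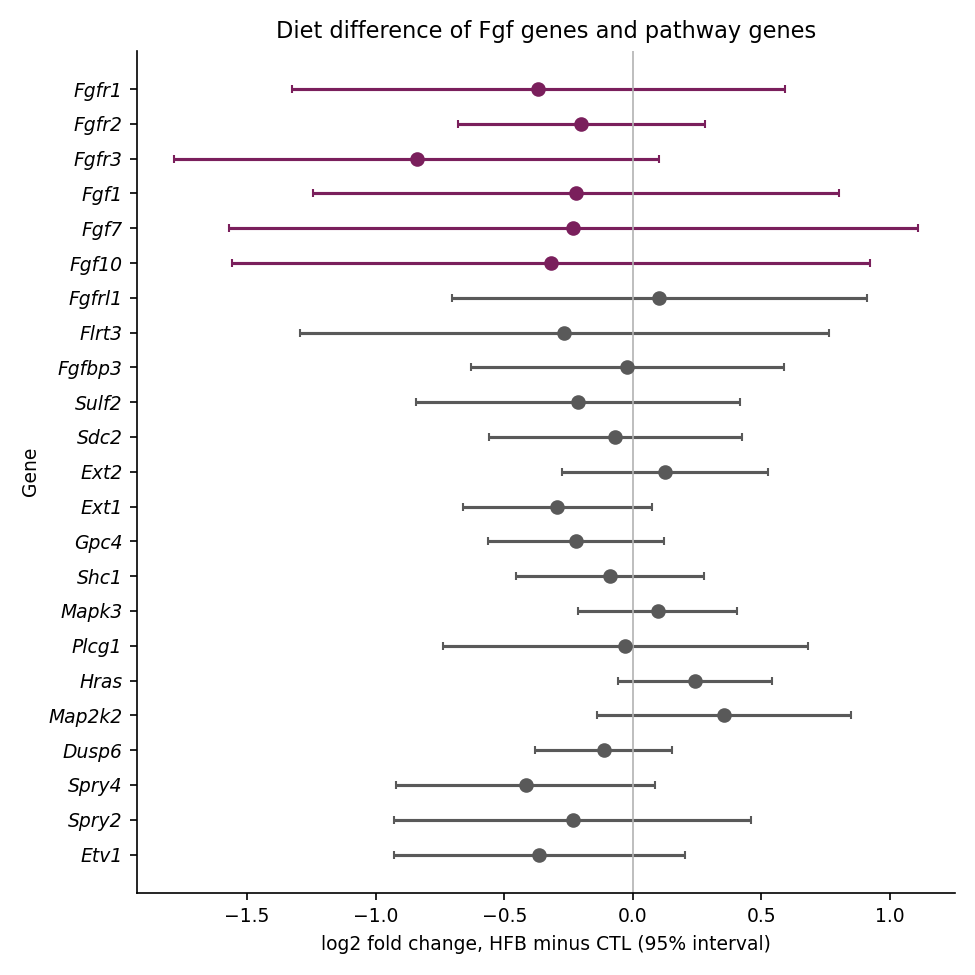
Log2 fold change between the diets, HFB minus CTL, for 6 Fgf genes (purple) and 17 named pathway genes (grey), with 95% intervals from edgeR over 12 libraries. Each of the 23 intervals includes 0, and those of Fgf7 (-1.57 to 1.11) and Fgf10 (-1.56 to 0.92) are wider than that of Fgfr2 (-0.68 to 0.28).

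The pathway lists were also counted across the marker scores, and no difference between a list and all genes was tested. With the adipocyte score 10 of 19 signal relay genes rose and 4 fell (73.7% called), 7 of 17 heparan sulfate genes rose and 5 fell (70.6%), 2 of 3 coreceptor and binding genes rose (66.7%), and 1 of 8 feedback and target genes rose and 1 fell (25.0%), against 53.9% of all genes called. With the fibroblast score 5 of 17 heparan sulfate genes rose and 3 fell (47.1%), 2 of 8 feedback and target genes rose and 1 fell (37.5%), 2 of 3 coreceptor and binding genes rose (66.7%), and 4 of 19 signal relay genes rose and 2 fell (31.6%), against 33.7% of all genes called. Sulf2 (slope 1.51) and Sdc2 (slope 1.14) were among those that rose. Plcg1 fell with the fibroblast score (slope -1.47). With the mammary epithelium score 2 of 17 heparan sulfate genes (11.8%) and 1 of 8 feedback and target genes (12.5%) rose, and 0 of 19 signal relay and 0 of 3 coreceptor and binding genes were called, against 1.29% of all genes called. With the lymphoid score 3 of 17 heparan sulfate genes rose and 2 fell (29.4%), 2 of 19 signal relay genes rose (10.5%), and 1 of 8 feedback and target genes (12.5%) and 1 of 3 coreceptor and binding genes (33.3%) fell, against 24.5% of all genes called. None was called for the endothelium or skeletal muscle score. Without the farthest libraries 0 genes were called for the adipocyte or fibroblast score, 34 (0.354%) for the mammary epithelium score and 66 (0.703%) for the lymphoid score.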

How the data were processed

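Reads per gene were measured in 12 whole mammary glands at PND21, and libraries were grouped by the diet in their labels. The authors deposited raw counts for 16511 genes by Entrez identifier, 1 column per library, without normalization. The submitters' processing notes name bcl2fastq, CASAVA 1.8, TopHat, DESeq and the build rn4. The counting program, the annotation and the use of strand are not given in the sources used here. Symbols came from RefSeq's gene table for GRCr8, where 16351 identifiers matched.

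The fits used edgeR 4.0.16 with R 4.3.3 (TMM, filterByExpr, quasi-likelihood test, Benjamini-Hochberg adjustment over all 9382 genes, threshold 0.05), for diet and for the slope on 6 marker scores with diet as a covariate. Scores are the mean log2 CPM of a list with a prior count of 2. In simulated data the diet test found 97.9% of 4-fold changes and 44.9% of 2-fold changes. The slope test found 53% of 4-fold and 5.32% of 2-fold changes. The lists hold markers of mammary epithelium, fibroblasts, adipocytes, endothelium, skeletal muscle and lymphoid cells. To find repeats of 1 sample, libraries of a diet were compared in pairs, and none agreed within sampling noise (chi-square per degree of freedom at least 7.17 over 30 pairs). Totals of 2320267 to 2944680 counts put the detectable level of 3 counts at 0.945 to 1.30 CPM.

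Alternatives were DESeq2 1.42.0, limma 3.58.1 (voom with sample quality weights), DESeq2's size factors, upper-quartile normalization, no filter on low counts, a minimum of 10 counts per library, marker scores as covariates, no diet term, and fits without each library, without HFB 6 and CTL 14 and without the 2 libraries farthest from a score's median. A fit without HFB 5 and HFB 6 was added after the data had been seen. These were the lowest HFB libraries for Fgfr1, Fgfr3, Fgf1, Fgf7 and Fgf10, so leaving them out could only raise the HFB level of these genes. The members and lists were chosen with earlier results of these data known. Named genes were the members, and the 3 genes with the most reads and the 2 with the smallest unadjusted p of each pathway list. For each member of at least 20 median counts, the 3 genes with the highest r and the gene with the lowest r were named too. Pik3r1, Akt1, Cdh5, Tek, Emcn, Pecam1, Pdgfra, the slopes named for Fgfrl1, Sulf2, Sdc2, Plcg1, Ppp1r1b, F2rl1 and Sox8, and the libraries named beside them were chosen after their values had been seen. Another gene looked up with them is not reported here. Sequences are from RefSeq's promoter table for GRCr8. Without strand, reads of a gene and of an antisense partner cannot be told apart. No transcript lengths were used, so levels are not compared between genes. Where a gene is named as having the highest CPM of a marker list, this describes the reads only.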

Additional observations from a re-analysis of the deposited data

Results flagged for a closer look

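In 40 groups of 6 libraries of a diet, the gap between the highest or lowest library and its nearest neighbour was set against the group's range and Dixon's critical value. It was exceeded in 15 groups, where chance gives about 2, and the groups are not independent since the same libraries recur.

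HFB 6 was far from the other HFB libraries in 4 measures. Its Fgfr1 share of the receptor reads was 20.3%, against 56.9% in the next library, and its Fgfr4 share 7.52%, against 1.24%. Fgfr4 itself was at 3.97 CPM, against 1.64 CPM, and the adipocyte score was 9.66, against 11.01.

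CTL 14 was far from the other CTL libraries in 8 measures. Fgfr1 was at 34.45 CPM, against 97.7 CPM in the next library, and Fgf7 at 2.44 CPM, against 18.9 CPM, while Fgfr4 was at 4.87 CPM, against 0.945 CPM. Its Fgfr1 share was 41.1%, against 66.1%, and its Fgfr4 share 5.81%, against 0.661%. The fibroblast score was 9.41, against 10.34, the adipocyte score 9.61, against 11.1, and the lymphoid score 6.94, against 2.88.

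CTL 10 had an Fgfr3 share of 4.67%, from 19 reads, against 3.37% in the next CTL library. Total counts were lowest in HFB 1, at 2320267 against 2629159 in the next HFB library, and highest in CTL 7, at 2944680 against 2570080 in the next CTL library.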

How the results depend on the processing

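No gene had an adjusted p under 0.05 for diet in edgeR's test, in DESeq2 or limma, or in any other of the 22 alternatives. Genes at an unadjusted p under 0.05 numbered 220, and 613 with limma, 759 with the mammary epithelium score as a covariate, 992 with the mammary epithelium, skeletal muscle and lymphoid scores, 431 without HFB 6 and CTL 14, and 135 to 587 when each library was left out (587 without CTL 14, 389 without HFB 4, 378 without HFB 1, and 135 to 141 without HFB 5, CTL 7, CTL 10 or CTL 11). With a fold change over 2 as well, 11 genes passed, and 113 without a filter, 4 with at least 10 counts in every library, where fewer genes are tested, 64 with limma, 35 and 19 with the 1 or 3 scores, 30 without HFB 6 and CTL 14, 68 without HFB 5 and HFB 6, and 8 to 128 when each library was left out (128 without CTL 14, 33 without CTL 9, 25 without HFB 4, 20 without HFB 1 and 17 without HFB 6). The log2 fold changes of Fgfr1, Fgfr2 and Fgfr3 kept their sign in every alternative that tested them (Fgfr3 was not in the fit with at least 10 counts in every library). That of Fgf1, between -0.53 and 0.11 with each library left out, turned to 0.019 with the 3 scores, 0.11 without CTL 10 and 0.12 without HFB 5 and HFB 6. That of Fgf7, between -0.61 and 0.019 with each left out, turned to 0.019 without HFB 6 and 0.24 without HFB 5 and HFB 6. That of Fgf10, between -0.54 and -0.064 with each left out, turned only in the later added fit without HFB 5 and HFB 6, to 0.050. Genes called for the mammary epithelium score numbered 121, and 34 without the 2 farthest libraries, 11 without HFB 5 and HFB 6 and 58 to 1769 when each library was left out (1769 without HFB 4, 190 without CTL 9, 72 without HFB 2, 70 without HFB 3 and 58 without HFB 6). For the fibroblast score 3165 genes were called, 0 without the 2 farthest libraries and 217 to 4554 with each left out (217 without CTL 14 and 1364 without HFB 6). For the adipocyte score 5057 were called, 0 without the 2 farthest and 2946 to 5422 with each left out (2946 without HFB 6). For the lymphoid score 2296 were called, 66 without the 2 farthest and 269 to 3405 with each left out (269 without CTL 14 and 714 without HFB 6). For skeletal muscle 77 were called, 46 without the 2 farthest and 59 to 92 with each left out, and for endothelium 0, and 1 without the diet term. Slopes on the mammary epithelium score turned to 0.078 for Fgfr3, 0.12 for Fgf1 and 0.079 for Fgf10 without HFB 5 and HFB 6. Without the 2 farthest libraries, slopes on the fibroblast score turned to 1.98 for Fgfr2, -1.81 for Fgfr3, -2.23 for Fgf1, -1.80 for Fgf7 and -1.001 for Fgf10, and that of Fgf10 on the adipocyte score to -0.49, and without CTL 14 that of Fgfr2 on the fibroblast score to 0.0035 (-0.34 to 0.0035 with each left out). Where libraries were left out, fewer samples entered the fit, and otherwise the cause was not tested. No paired analysis was run, since each gland came from a separate litter and the labels give no pairing. Receptor shares per kilobase were not run, since transcript lengths were not used here. Fgfr4, Fgf2 and Fgf9 were compared between the diets only in the fit without a filter.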
